A study of Mus musculus with 18 samples.

Results

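Wild-type R1 embryonic stem cells (mESC), a mouse cell line grown in culture, were compared by bulk RNA sequencing with wild-type adult cerebral cortex. The rule took 6 of the 18 libraries of the series: 2 mESC libraries and 4 adult cortex libraries, of which 2 carried the stage label A6w and 2 the label A18w. The cortex came from male C57BL/6J mice, and the labels give neither strain nor sex for R1. No library compared here carried a mutation or a treatment by its label, and culture conditions were described only as standard. The series itself is a study of Mcph1, the gene of microcephalin, in developing and adult cortex, with the stem cells as a cultured wild-type sample. Stem cell line against tissue, culture against animal and, where R1 is not C57BL/6J, strain all change together between the groups, so their parts in any difference below cannot be told apart. The labels do not say whether the libraries of a group are separate cultures or animals, so p-values measure the spread between libraries, which may be technical.

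Embryonic stem cells come from the inner cell mass of the blastocyst, renew themselves without limit and can form every tissue of the embryo. A network of transcription factors around Oct4, Sox2 and Nanog keeps that state, and the cells divide fast, with a short first gap phase. Adult cortex is the opposite case: its neurons have left the cell cycle for good and live among astrocytes, oligodendrocytes, microglia and vessels. Bulk RNA averages over all of these cells, so fewer cells of a type and less RNA per cell cannot be told apart.

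The 6 libraries held 23531045 to 30745603 counts, and 21904 to 23336 genes had at least 1 count. Levels are CPM, counts scaled to library size and by the trimmed mean of M values (TMM), and differences are log2 fold changes of mESC over adult cortex from edgeR's quasi-likelihood test, called at an adjusted p under 0.05. Log2 levels correlated at 0.974 between the mESC libraries, at 0.973 to 0.979 among the adult libraries and at 0.524 to 0.565 between mESC and adult cortex, as a description over genes. Along the first principal component (92.9% of variance), mESC lay at -300.9 and -316.9 and adult cortex at 151.6 to 157. The mESC libraries were less alike than the adult pairs in their spread over genes. Of genes at 10 CPM or more, 6.67% differed by over 2-fold between the mESC libraries. The share was 1.52% between the A6w and 1.55% between the A18w libraries.

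Marker genes matched the labels. The 10 stem cell markers summed to 8510 and 8010 CPM in mESC, against 40.5 to 53.6 CPM in adult cortex, where Sox2, which astrocytes and neural progenitors also express, made up most of the sum (35.2 CPM on average). The 7 neuron markers summed to 14.9 and 5.16 CPM in mESC and to 6790 to 7400 CPM in adult cortex. Feeder cells are fibroblasts often grown under stem cells. The 6 fibroblast markers together reached 3.89 and 2.11 CPM in mESC, against 16.9 to 71.9 CPM in adult cortex. Of these markers Postn, Dcn and Lum were at 0 in both mESC libraries, and the collagens Col1a1, Col1a2 and Col3a1 made up the sum. The 6 markers of differentiated cells, such as Gata4, Gata6 and T, summed to 8.13 and 2.77 CPM in mESC and to 4.92 to 9.07 CPM in adult cortex. Among the adult libraries, A18w replicate 2 stood apart in choroid plexus markers (676 CPM, against 5.54 to 15.6 in the other 3 adult libraries). The 4 choroid plexus markers summed to 26 and 22 CPM in mESC, above those 3 adult libraries, though Ttr was at 0 in mESC. A18w replicate 1 stood apart in striatal markers (1720 CPM, against 154 to 350). The part of these tissues in the results was not tested beyond leaving each library out.

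Most of the transcriptome differed. Of 19466 genes tested, 14824 (76.2%) were called, 7136 (36.7%) higher and 7688 (39.5%) lower in mESC. At least 4-fold differences were called for 3903 genes (20.1%) higher and 5366 (27.6%) lower. The median log2 difference was -0.12, with quartiles at -2.52 and 1.58. With so large a share called, a count within any gene group has to be read against these percentages. A gene at 0 counts in all libraries of one side also could not be called higher on that side. Both mESC libraries lay above all 4 adult libraries for 7538 genes (38.7%) and below all 4 for 8223 (42.2%). The same fit called 14219 genes (73%) against A6w cortex alone, 34.7% higher and 38.3% lower, with 19.8% at least 4-fold higher. Against A18w cortex alone it called 14165 (72.8%), 34.5% higher and 38.3% lower, with 19.6% at least 4-fold higher and 27.3% at least 4-fold lower.

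Among genes with more than a clone, model or pseudogene name, the largest rises were chiefly pluripotency genes that adult cortex hardly transcribes. Zfp42 (Rex1), a zinc finger protein used as a stem cell marker, stood at 1386 and 1469 CPM in mESC, against 0 counts in all 4 adult libraries, which makes it at least 46870-fold higher in mESC. Pou5f1, the gene of Oct4 (GRCm38 chromosome 17, 35506018 to 35510772), stood at 1485 and 1201 CPM in mESC and at 0 counts in adult cortex, at least 43840-fold higher. These lower bounds set 3 counts over the 4 adult libraries in place of 0 and cover counting error only. The other 8 of the 10 largest rises were Zfp980, Dppa5a, Lin28a, L1td1, Fgf4, Dppa4, Utf1 and Rex2, and 12 genes with nothing but a clone, model or pseudogene name were passed over among them. Zfp980 and Rex2 are zinc finger genes of families with close copies, so their counts depend on how shared reads were divided. They also differed between the mESC libraries: Zfp980 had 240.1 and 712.8 CPM in mESC and 0 counts in adult cortex.

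The 10 largest falls were genes of neurons and astrocytes, and 9 of them had no count at all in mESC. Rgs4, a regulator of G protein signalling in cortical neurons, had 0 counts in both mESC libraries, against 570.1 and 651.8 CPM at A6w and 635.6 and 527 CPM at A18w, at least 9408-fold lower in mESC. Gria1, an AMPA glutamate receptor subunit, had 0 counts in mESC and 299.6 to 549.9 CPM in adult cortex, at least 6201-fold lower. Slc1a2, the main glutamate transporter of astrocytes, was counted 3 times in mESC (0.0884 and 0.0407 CPM), against 2766 to 3899 CPM in adult cortex, a ratio of 53030 (95% counting interval 18150 to 257100) in favour of cortex. The others were Vxn, Akap6, Slc4a10, Opcml, Gpr158, Negr1 and Lamp5, each at 0 counts in mESC and at least 3378-fold lower there.

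**Figure D1:**
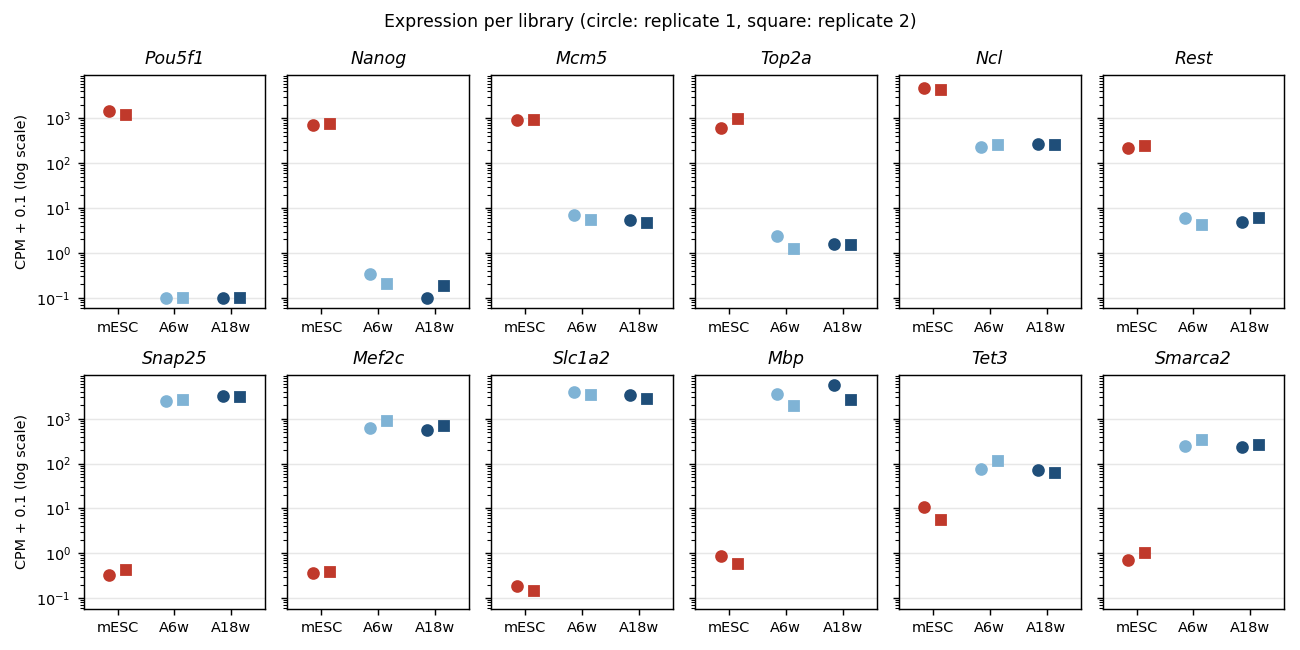
CPM plus 0.1 on a log scale for 12 genes in each of the 6 libraries, with mESC (red) left of A6w (light blue) and A18w cortex (dark blue). In every panel the 2 mESC points lie clear of the 4 cortex points, from 1343 CPM in mESC against 0 counts in adult cortex for Pou5f1 to 7.97 against 80.3 CPM on average for Tet3.

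All 16 core pluripotency genes rose in mESC, with a median log2 difference of 11.7, beside -0.12 for all genes tested. Of these, 6 had at most 3 counts over the adult libraries, and those at 0, such as Pou5f1, could not have been called lower. Nanog, a homeobox factor of the network, had 705.7 and 761.6 CPM in mESC, against 0 to 0.239 CPM in adult cortex. Tdgf1 (Cripto), a Nodal co-receptor, had 1187 and 1441 CPM in mESC and 0.259 to 0.438 CPM in adult cortex, a log2 difference of 11.77 ± 0.38 (SE). Both genes were thus far apart between the groups and close within them. Rif1, which also controls replication timing, had 323.5 and 555.7 CPM in mESC, against 19.7 to 28.48 CPM in adult cortex, so the core list also holds genes that cortex transcribes.

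Genes of the naive state, the ground state of mouse stem cells in culture, rose in 17 of 17 tested cases (median 10.5, or 9.61 with genes at their lower bounds). Here too 6 genes had at most 3 counts over the adult libraries. Esrrb, an orphan nuclear receptor, averaged 650.5 ± 123 CPM in mESC (SD, n = 2) and 2.19 ± 0.36 CPM in adult cortex (SD, n = 4). Tdh, threonine dehydrogenase, an enzyme on which mouse stem cells depend for one-carbon units, had 684 and 909.1 CPM in mESC and 0 to 0.199 CPM in adult cortex. Klf2, a factor that vessels also express, had 427.7 and 300.3 CPM in mESC, against 10.71 to 31.42 CPM in adult cortex. The higher adult values of Klf2 were those of the A18w libraries. Genes of the primed state and of the germ layers went both ways, 9 higher and 4 lower of 13 tested. Over all genes tested 36.7% were higher and 39.5% lower. Those of the list that rose stayed low: Otx2 averaged 27.8 CPM in mESC and 1 CPM in adult cortex. Gata4 averaged 1.99 CPM in mESC and had 0 counts in adult cortex. Fgf5, a marker of primed cells, was among the genes of that list that fell, at 0.0884 and 0.0407 CPM in mESC and 2.735 to 5.473 CPM in adult cortex.

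A small part of a stem cell culture passes through a state that resembles the embryo at its first cleavage and is marked by the Zscan4 cluster. Zscan4f had 16.36 and 7.525 CPM in mESC and 0 counts in adult cortex, at least 385.5-fold higher. Of the 11 genes of that list only 6 passed the count filter, and all 6 rose. Zscan4a, Zscan4c, Zscan4d and Zscan4f had 0 counts in adult cortex, so a call in the other direction was not possible for them. The Zscan4 genes are near-identical copies, so the split of reads among them is uncertain.

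Signalling genes that act on this network were mixed, with 9 higher, 4 lower and 3 not called of 16 (median 0.805). Over all genes tested 36.7% were higher and 39.5% lower. Leukaemia inhibitory factor (LIF) keeps mouse stem cells undifferentiated through Stat3 and its target Socs3. Socs3 had 162.8 and 140.7 CPM in mESC, against 2.509 to 3.445 CPM in adult cortex. Stat3 had 148.2 and 111.1 CPM in mESC, against 46.61 to 53.13 CPM. The signal chain did not rise as a whole: the kinase Jak1 fell (log2 difference -2.27 ± 0.19), and the receptor chain Il6st passed the threshold narrowly in the same direction (-0.36 ± 0.15, adjusted p = 0.0494, edgeR quasi-likelihood test), a call lost with most of the libraries left out in turn. Lifr, the LIF receptor, was not called at 56.5 CPM in mESC and 56 CPM in adult cortex (adjusted p = 0.966, edgeR quasi-likelihood test). Lifr was named after its values were seen.

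The cell cycle separated the groups across its phases. Cyclins activate the cyclin-dependent kinases (CDKs) that drive each phase, MCM proteins load onto origins before DNA synthesis, and the kinases and motors of mitosis are made anew in each cycle. Of 19 cyclins, CDKs and CDC25 phosphatases tested, 15 rose and 4 fell. Ccnb1, the cyclin of mitotic entry, had 408.5 and 608.7 CPM in mESC, against 0.411 to 0.462 CPM in adult cortex, a log2 difference of 10.17 ± 0.41. Ccna2, the cyclin of DNA synthesis, had 284.6 and 422.1 CPM in mESC and 1.065 to 2.549 CPM in adult cortex. The 4 that fell were Ccnd2 and the members of a kinase that works in neurons rather than in the cycle. They were Cdk5 (14.55 and 15.62 CPM in mESC, 80.2 to 89.03 CPM in adult cortex) and its activators Cdk5r1 (log2 difference -7.95 ± 0.45) and Cdk5r2 (-6.08 ± 0.56).

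All 23 genes of origin licensing rose (median 5.67). The 6 subunits of the MCM helicase, Mcm2 to Mcm7, all rose. Their averages in mESC ran from 438.6 CPM for Mcm4 to 923.7 CPM for Mcm5, against 2.72 CPM for Mcm3 to 10.96 CPM for Mcm7 in adult cortex. Mcm5 had 930.6 and 916.9 CPM in mESC, against 4.618 to 6.849 CPM in adult cortex, a log2 difference of 7.38 ± 0.24 (adjusted p = 8.56e-09, edgeR quasi-likelihood test). DNA synthesis genes rose in 26 of 27 cases. The exception was a subunit of ribonucleotide reductase, the enzyme that makes deoxynucleotides: Rrm2, its cycle-dependent form, rose to 350.9 and 409.3 CPM in mESC, against 1.551 to 2.546 CPM in adult cortex. Rrm2b, the form that serves non-dividing cells, fell to 7.384 and 13.02 CPM in mESC, against 39.6 to 52.22 CPM.

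Mitosis genes rose in 33 of 33 cases, 31 of them by at least 4-fold, with a median of 7.2. Top2a, the topoisomerase that untangles sister chromatids, had 604 and 986 CPM in mESC and 1.101 to 2.35 CPM in adult cortex. Bub1b and Cdc20, parts of the spindle checkpoint and its target, averaged 343.8 ± 8.86 and 312.7 ± 11.2 CPM in mESC (SD, n = 2), against 1.18 ± 0.35 and 1.04 ± 0.24 CPM in adult cortex (SD, n = 4). Anln (anillin), a ring protein of cell division that myelinating cells also express, had 236.9 and 301 CPM in mESC, against 16.05 to 57.74 CPM in adult cortex. All 8 condensin subunits, which fold mitotic chromosomes, rose (median 4.89), among them Ncapg with 140.9 and 246.9 CPM in mESC and 0.259 to 0.398 CPM in adult cortex. Of 12 cohesin genes 10 rose, with a smaller median of 1.64. Cohesin also holds chromatin loops in non-dividing cells, and Rad21 had 457.5 and 353.8 CPM in mESC, against 118.6 to 148.9 CPM in adult cortex.

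Brakes of the cycle were split, as were genes tested as a whole (36.7% higher and 39.5% lower). E2f4 averaged 239.3 CPM in mESC and 28.9 CPM in adult cortex, and the repressors E2f7 and E2f8 rose, with log2 differences of 6.78 ± 0.53 and 7.17 ± 0.39. Rbl2, the member of the retinoblastoma family typical of resting cells, fell to 10.3 and 12.2 CPM in mESC, against 51.9 to 56.4 CPM in adult cortex. Rb1 fell less, by 0.65 on the log2 scale and with no call without mESC replicate 1, and of the 18 genes of this list 10 rose, 5 fell (3 without mESC replicate 1) and 3 were not called.

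Promoters of these genes carry short elements that tie them to the cycle. The CHR element, read by the DREAM and MuvB complexes, is known from mitotic genes, the NF-Y box often lies upstream of it, and E2F sites are known from genes of DNA synthesis. The promoters of Top2a, Bub1b and Cdc20 are shown because these genes were the most abundant in mESC among mitotic genes whose promoters hold both elements. The presence of both was thus a condition of the choice. CHR (TTTGAA or its reverse complement) and the NF-Y box (CCAAT or its reverse complement) are in capitals. Each promoter runs 5′ to 3′ on the gene's strand from 250 bases before to 50 after the RefSeq start, GRCm38.p6.
Top2a, chr11:99024140-99024439, minus strand: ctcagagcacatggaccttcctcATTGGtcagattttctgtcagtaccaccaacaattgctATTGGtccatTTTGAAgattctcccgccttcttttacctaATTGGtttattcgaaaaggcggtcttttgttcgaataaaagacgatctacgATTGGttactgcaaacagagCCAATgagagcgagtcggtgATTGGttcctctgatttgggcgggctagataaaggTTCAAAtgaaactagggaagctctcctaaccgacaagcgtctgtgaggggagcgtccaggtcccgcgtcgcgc
Bub1b, chr2:118597961-118598260, plus strand: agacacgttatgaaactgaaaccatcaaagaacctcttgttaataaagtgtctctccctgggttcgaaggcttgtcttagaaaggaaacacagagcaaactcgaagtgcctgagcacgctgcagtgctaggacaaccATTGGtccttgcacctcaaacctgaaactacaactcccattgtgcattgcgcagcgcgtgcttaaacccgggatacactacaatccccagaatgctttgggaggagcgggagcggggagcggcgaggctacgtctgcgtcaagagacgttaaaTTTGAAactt
Cdc20, chr4:118437294-118437593, minus strand: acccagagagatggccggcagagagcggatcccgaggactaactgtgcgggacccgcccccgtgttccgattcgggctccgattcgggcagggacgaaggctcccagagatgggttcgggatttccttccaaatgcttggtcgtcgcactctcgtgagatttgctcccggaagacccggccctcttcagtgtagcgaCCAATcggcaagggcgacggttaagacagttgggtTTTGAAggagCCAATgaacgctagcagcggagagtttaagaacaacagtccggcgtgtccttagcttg
Top2a held 2 CHR matches and 6 NF-Y boxes, Bub1b 1 and 1, and Cdc20 1 and 2.

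The 2 licensing promoters below are those of abundant MCM subunits with an E2F match, and their capitals mark the E2F site (TTTCCCGC or TTTGGCGC, either strand).
Mcm5, chr8:75109259-75109558, plus strand: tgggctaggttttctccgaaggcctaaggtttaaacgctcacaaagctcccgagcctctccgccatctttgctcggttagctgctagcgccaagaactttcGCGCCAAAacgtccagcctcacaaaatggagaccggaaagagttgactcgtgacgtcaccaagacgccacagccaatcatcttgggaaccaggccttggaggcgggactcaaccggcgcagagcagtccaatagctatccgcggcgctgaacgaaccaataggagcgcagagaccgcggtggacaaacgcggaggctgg
Mcm3, chr1:20820263-20820562, minus strand: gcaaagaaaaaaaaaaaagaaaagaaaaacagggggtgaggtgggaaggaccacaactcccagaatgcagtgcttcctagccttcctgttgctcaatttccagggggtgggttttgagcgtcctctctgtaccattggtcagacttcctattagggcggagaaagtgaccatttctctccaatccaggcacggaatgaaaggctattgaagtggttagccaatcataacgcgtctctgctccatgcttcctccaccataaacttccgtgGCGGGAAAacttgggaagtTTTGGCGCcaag
Mcm5 held 1 E2F match and Mcm3 held 2.

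CHR was matched in 21 of 28 mitosis promoters (75%), in 4 of 7 condensin promoters (57.1%) and in 5 of 18 licensing promoters (27.8%), against 12.4% of the 13409 promoters matched to genes tested. An E2F site of either form stood in 8 of 18 licensing promoters (44.4%), in none of the 28 mitosis promoters and in 2.72% of those of genes tested. Its share was 42.9% of the 7 condensin, 33.3% of the 9 cohesin and 13.6% of the 22 DNA synthesis promoters, so it did not set licensing apart from all other cycle lists. The NF-Y box stood in 75% of mitosis, 61.1% of licensing and 38.3% of tested promoters. High shares were not particular to cycle lists, with 82.4% of cholesterol synthesis promoters. It was rarer in synaptic vesicle (13%), immediate early (20%) and BAF (22.7%) promoters. Where the match lay also differed: 20 of the 25 CHR matches in mitosis promoters (80%) fell between 60 bases before and 50 bases after the start, against 25.1% of the 1863 matches in promoters of genes tested. These are descriptions of letters in RefSeq windows. Median GC content, which moves with short motifs, was 58.3% in mitosis promoters and 60% in those of genes tested.

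**Figure D2:**
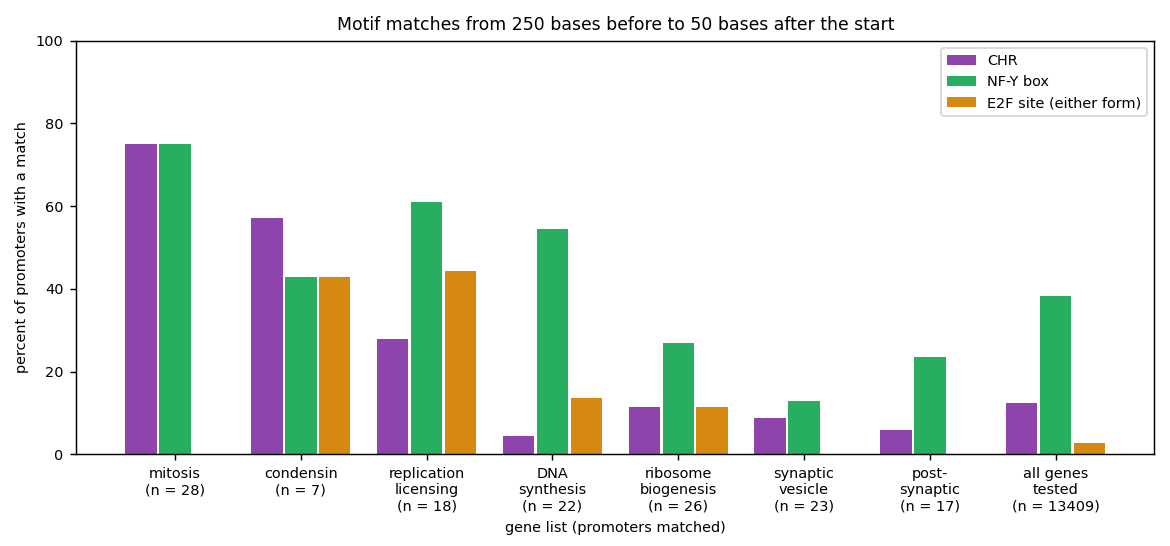
Percent of promoters with at least 1 match of CHR, the NF-Y box or either E2F form, by gene list, with the number of promoters matched under each list. The CHR bar is tallest for mitosis (75%) and the E2F bar for licensing (44.4%), beside 12.4% and 2.72% for all genes tested.

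Mcph1 (ENSMUSG00000039842.15 in the series, GRCm38 chromosome 8) rose as well. It had 84.89 and 79.73 CPM in mESC, against 9.478 and 8.807 CPM at A6w and 8.118 and 9.537 CPM at A18w, a log2 difference of 3.19 ± 0.17 (adjusted p = 4.67e-08, edgeR quasi-likelihood test). Genes whose loss causes primary microcephaly, most of them acting at centrosomes and spindles, rose in 14 of 18 cases, with a median of 3.24. Aspm, a spindle pole protein, had 99.26 and 156.7 CPM in mESC, against 0.259 to 0.497 CPM in adult cortex, and Knl1, a kinetochore scaffold, 63.98 and 102.6 CPM against 0.355 to 0.557 CPM. The 2 that fell were Cit, a kinase of cytokinesis that neurons also express (log2 difference -1.25 ± 0.26), and Mfsd2a, the lipid transporter of brain endothelium (-3.43 ± 0.25).

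Genes that guard the genome rose as well. Homologous recombination and Fanconi genes rose in 25 of 26 cases (median 3.94). Brca1, a breast cancer susceptibility gene of this pathway, had 108.6 and 142.2 CPM in mESC, against 1.338 to 2.417 CPM in adult cortex. Trp53, the gene of p53, had 540.7 and 306.4 CPM in mESC and 13.39 to 20.57 CPM in adult cortex. Of 20 genes of p53 and its targets 15 rose and 1 fell, the kinase Plk2, which neurons induce with activity (27.94 and 37.02 CPM in mESC, 179.2 to 210.2 CPM in adult cortex). Without mESC replicate 1, 3 genes of that list were called lower. Telomere genes rose in 12 of 13 cases, among them Dkc1, the dyskerin of telomerase and of nucleolar RNPs, with 338.4 and 391.1 CPM in mESC and 22.26 to 25.42 CPM in adult cortex.

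The machinery of growth rose almost as a whole. Ribosome biogenesis genes rose in 30 of 30 cases (median 3.48), led by Ncl (nucleolin) with 4792 and 4277 CPM in mESC, against 229.6 to 274.5 CPM in adult cortex. Npm1, a nucleolar chaperone, had 2815 and 3985 CPM in mESC and 86.34 to 103.9 CPM in adult cortex. Cytosolic ribosomal proteins rose in 44 of 45 cases (median 2.88), and as a class they took 6.99% and 7.62% of the counts in mESC, against 0.999% to 1.26% in adult cortex. Ribosomal protein genes have many processed pseudogenes, so part of their reads may have been shared with copies. Processed pseudogenes themselves were called higher in 221 of 413 cases (53.5%), a class for which the same doubt holds.

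Nucleotide and one-carbon metabolism, which feeds DNA synthesis, rose in 24 of 28 cases (median 3.25). Paics and Gart, enzymes of purine synthesis, averaged 833.6 ± 205 and 655.2 ± 13.2 CPM in mESC (SD, n = 2), against 91.5 ± 8.99 and 30.7 ± 1.57 CPM in adult cortex (SD, n = 4). Aldh1l1, a folate enzyme used as an astrocyte marker, fell to 6.279 and 3.783 CPM in mESC, against 46.18 to 63.26 CPM. Glycolysis genes went both ways, with 14 higher, 9 lower and 3 not called of 26, beside 36.7% higher and 39.5% lower of all genes tested. Pkm rose by a log2 difference of 1.83 ± 0.18, and Slc2a3, a glucose transporter known best from neurons, had 1535 and 1001 CPM in mESC, against 147.9 to 224.4 CPM in adult cortex. Eno2, the neuronal enolase, fell to 5.35 and 5.166 CPM in mESC, against 842.2 to 1015 CPM. Nuclear genes of oxidative phosphorylation moved little, with a median of 0.392. Of 48 such genes 22 rose, 3 fell and the largest difference in either direction was that of Cox7c (1.64 ± 0.25).

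Genes of the mitochondrial genome depended on the mESC library. Mitochondrial transcripts took 1.68% of the counts in mESC replicate 1 and 5.9% in replicate 2, against 6.05% to 9.73% in adult cortex. Of 15 genes tested, 7 were called lower and none higher. mt-Co1 had 4543 and 20740 CPM in mESC and 16420 to 29250 CPM in adult cortex, where replicate 2 of mESC lay within the adult range. The 2 ribosomal RNAs of the organelle differed in both mESC libraries: mt-Rnr2 had 184.7 and 225.8 CPM in mESC, against 3416 to 4386 CPM in adult cortex, a log2 difference of -4.21 ± 0.25. With mESC replicate 2 left out 14 of 15 were called lower.

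Chromatin regulators went in both directions, as did genes tested as a whole (36.7% higher and 39.5% lower). Maintenance of DNA methylation rose: Uhrf1, which recruits Dnmt1 to replicated DNA, had 411.3 and 408.1 CPM in mESC, against 0.757 to 1.277 CPM in adult cortex, and Dnmt1 itself 327.1 and 262.6 CPM against 44.92 to 71.24 CPM. Dnmt3l, a cofactor of de novo methylation in germ and stem cells, had 100.5 and 144.1 CPM in mESC and 0.137 to 0.216 CPM in adult cortex. Of the TET dioxygenases that oxidise methylcytosine, Tet1 rose (267.3 and 244.6 CPM in mESC, 9.408 to 14.54 CPM in adult cortex) and Tet3 fell (10.66 and 5.288 CPM in mESC, 60.37 to 111.7 CPM in adult cortex). In all 9 of 14 genes of this list rose and 3 fell.

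Polycomb repression is set by PRC2, which methylates histone H3, and by PRC1, which ubiquitinates H2A. Of 30 Polycomb genes 16 rose, 11 fell and 3 were not called (median 1.45). The rises include the PRC2 genes Jarid2 and Eed: Jarid2 had 685.8 and 503.4 CPM in mESC, against 27.79 to 41.12 CPM in adult cortex, and Eed 262.6 and 380.4 CPM, against 10.79 to 13.94 CPM. The falls include the PRC1 genes Cbx6 (74.81 and 53.41 CPM in mESC, 475.9 to 763.3 CPM in adult cortex) and Yaf2 (10.61 and 6.671 CPM in mESC, 106.5 to 128.1 CPM in adult cortex). BAF, the chromatin remodeller that swaps subunits as progenitors become neurons, had 9 genes higher, 13 lower and 3 not called of 25 (median -0.8). Over all genes tested 36.7% were higher and 39.5% lower, and both lists have to be read beside these shares.

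**Figure D3:**
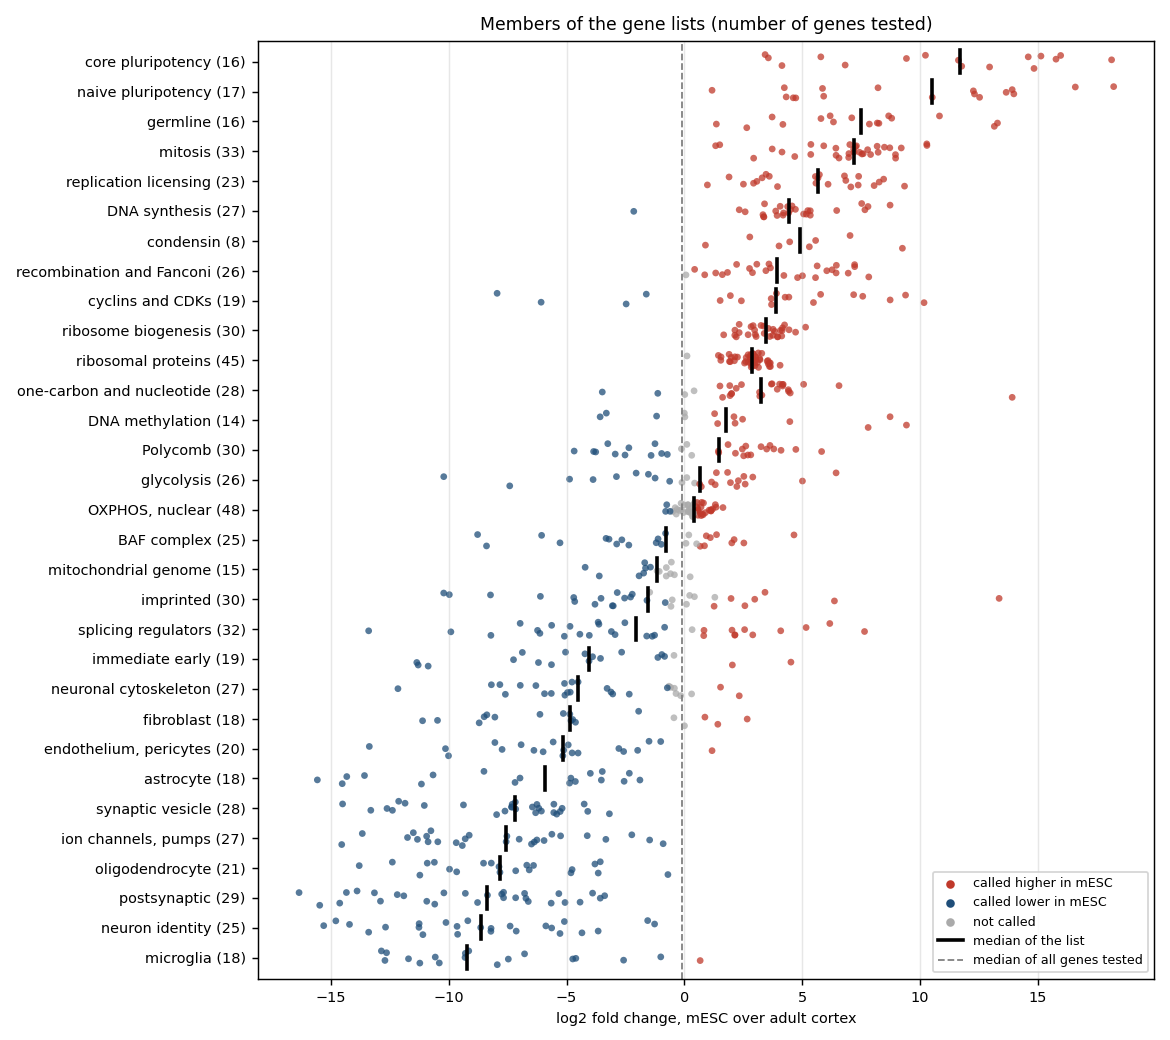
Log2 fold change of mESC over adult cortex for every tested member of 31 gene lists (1 point per gene, red called higher, blue called lower, grey not called), with list medians as black bars and the median of all genes as a dashed line at -0.12. The points run from pluripotency lists at the top (median 11.7) to neuron identity and microglia at the bottom (medians -8.64 and -9.22, the second -7.13 with genes at their lower bounds), with both colours in the glycolysis, Polycomb and BAF rows between.

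Related genes often exchanged places. Of 32 pairs of paralogs examined, 18 had the first member called higher and the second called lower in mESC, 10 moved in the same direction and in 4 at most 1 member was called. The pairs were put together knowing which members mark dividing cells and neurons and with earlier results of these data known, so the count describes the pairs and carries no test. Translation elongation factor was the most abundant case: Eef1a1 had 11200 and 12900 CPM in mESC and 1581 to 2204 CPM in adult cortex, whereas its neuron and muscle form Eef1a2 had 6.057 and 2.644 CPM in mESC and averaged 1219 ± 128 CPM in adult cortex (SD, n = 4). Per kilobase of exon, Eef1a1 and Eef1a2 stood at 4834 and 2.09 CPM in mESC, against 766 and 585 CPM in adult cortex. Per length, the neuronal form was thus below the common form in both groups, by far more in mESC.

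In the BAF complex 4 pairs exchanged. Actl6a, the actin-like subunit of progenitors, averaged 210.9 ± 36.8 CPM in mESC and 8.38 ± 0.4 CPM in adult cortex, and Actl6b, its neuronal partner, averaged 0.131 ± 0.128 and 57.95 ± 3.32 CPM (SD, n = 2 and n = 4). Smarca4 and Smarca2, the alternative ATPases, differed in size of change: Smarca4 rose by a log2 difference of 0.67 ± 0.22, and Smarca2 fell by 8.4 on the log2 scale, to 0.619 and 0.936 CPM in mESC. Smarcc1 over Smarcc2 and Ss18 over Ss18l1 went the same way, with log2 differences of 2.01 and 2.11 for the first members and -3.32 and -3.2 for the second.

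Polycomb exchanged its enzymes and a reader: Ezh2 rose (5.83 ± 0.29) while Ezh1 fell (-0.96 ± 0.16), and Cbx7 rose (1.85 ± 0.16) while Cbx6 fell (-3.25 ± 0.26). Among metabolic enzymes, Hk2 rose (6.44 ± 0.21) and Hk1 fell (-2.05 ± 0.31), Ldha rose (2.53 ± 0.2) and Ldhb fell (-1.53 ± 0.21), and Eno1 rose (0.72 ± 0.19) and Eno2 fell (-7.41 ± 0.29). The tubulins Tubb5 and Tubb4a, the nucleosome chaperones Nap1l1 and Nap1l5, the topoisomerases Top2a and Top2b, the kinases Cdk1 and Cdk5, the survival factors Mcl1 and Bcl2l1, the nucleolar GTPases Gnl3 and Gnl3l and the RNA-binding proteins Elavl1 and Elavl3 did likewise. The fall of Gnl3l was small and close to the threshold (-0.43 ± 0.18, adjusted p = 0.0492, edgeR quasi-likelihood test), and it was lost under most alternatives. Smarca4 kept its direction but was not called without mESC replicate 1 (0.23), nor was Eno1 without mESC replicate 2 (0.45). Pairs that did not exchange include Dnmt3b and Dnmt3a, both called higher in mESC (7.8 ± 0.3 and 1.28 ± 0.32). Dnmt3a stood at 0.4 without mESC replicate 1. Among glycolysis pairs, the glucose transporters Slc2a1 and Slc2a3 both rose (2.23 ± 0.23 and 2.9 ± 0.24). Of the aldolases, Aldoc fell (-4.87 ± 0.25) while Aldoa was not called (-0.1 ± 0.19).

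**Figure D4:**
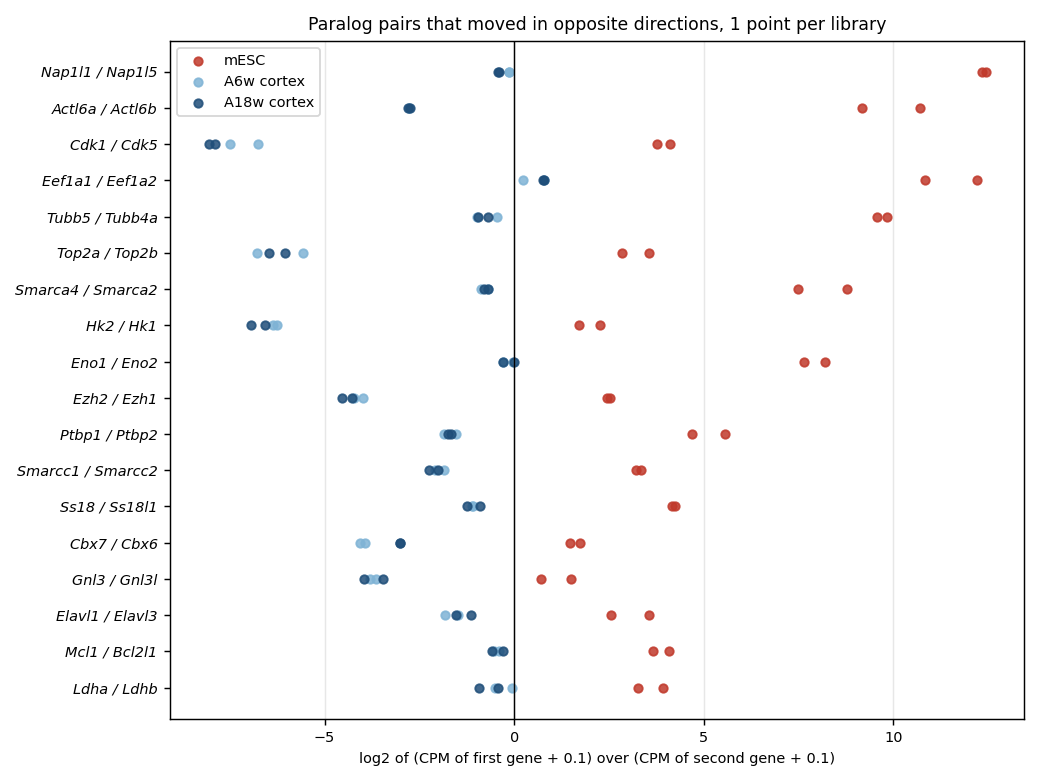
Log2 ratio of the first to the second gene of the 18 pairs that moved in opposite directions, 1 point per library (mESC red, A6w light blue, A18w dark blue). In each row both mESC points lie right of all 4 cortex points, with the widest gap for Nap1l1 over Nap1l5 (12.44 and 12.34 in mESC, -0.42 to -0.13 in adult cortex).

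RNA processing factors exchanged too. Ptbp1 represses neuronal exons and its own relative Ptbp2, and gives way when neurons form. Ptbp1 had 957.5 and 927.9 CPM in mESC, against 23.97 to 28.01 CPM in adult cortex, and Ptbp2 fell by 1.6 on the log2 scale. Of 32 splicing regulators 11 rose, 20 fell and 1 was not called, beside 36.7% higher and 39.5% lower of all genes tested. Those that fell include the RBFOX and CELF families: Rbfox3 (NeuN), a marker of mature neurons, had 1.769 and 0.529 CPM in mESC, against 262 to 394.8 CPM in adult cortex, and Celf2 had 3.36 and 2.969 CPM, against 358.6 to 446.8 CPM. Rbfox1 was counted once in mESC and averaged 279.6 ± 31.1 CPM in adult cortex (SD, n = 4). Those that rose include general SR proteins, such as Srsf3 with 667.9 and 938.7 CPM in mESC and 116 to 154.8 CPM in adult cortex.

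REST silences neuronal genes outside the nervous system by binding the RE1 element and recruiting deacetylases and demethylases. Rest had 222 and 246.2 CPM in mESC, against 5.774 and 4.048 CPM at A6w and 4.835 and 5.869 CPM at A18w, a log2 difference of 5.51 ± 0.19 (adjusted p = 9.06e-09, edgeR quasi-likelihood test). Of 11 genes of REST and its corepressors 8 rose and 1 fell, with Hdac1 at 446.9 and 485.4 CPM in mESC and 15.32 to 21.5 CPM in adult cortex. The RE1 consensus was matched in the promoters of 10 tested genes (0.0746% of tested promoters). Of these, 8 were called at least 4-fold lower in mESC, against 27.6% of all genes tested, 1 was called higher and 1 was not called. The 8 are Gad2, Fam163b, Hrh3, Gria2, Ttc9b, Scamp5, Fbll1 and Robo2, and Scamp5 was the least silent, at 49.2 CPM in mESC and 455.5 CPM in adult cortex. The promoter of Gria2, an AMPA receptor subunit counted once in mESC and at 539.4 CPM on average in adult cortex, is shown with its RE1 match in capitals.
Gria2, chr3:80802786-80803085, minus strand, GRCm38.p6: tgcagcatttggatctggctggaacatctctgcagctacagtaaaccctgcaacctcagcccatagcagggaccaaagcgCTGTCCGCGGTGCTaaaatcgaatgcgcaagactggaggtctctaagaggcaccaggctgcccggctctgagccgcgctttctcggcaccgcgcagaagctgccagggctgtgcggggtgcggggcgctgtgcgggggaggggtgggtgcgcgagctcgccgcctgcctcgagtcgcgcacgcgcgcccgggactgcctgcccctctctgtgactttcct
RE1 elements also lie far from starts, so a window of this size sees few of them, and a match is not a measured binding site.

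Neuronal genes fell in mESC, apart from part of the cytoskeleton. All 28 synaptic vesicle genes fell by at least 4-fold (median -7.17). Snap25, a SNARE protein of vesicle fusion, had 0.221 and 0.325 CPM in mESC, against 2528 to 3247 CPM in adult cortex, a log2 difference of -13.31 ± 0.43. Syt1, the calcium sensor of release, had 0.354 and 0.285 CPM in mESC and 1688 to 1834 CPM in adult cortex. Slc17a7, the vesicular glutamate transporter, was less silent, at 10.43 and 2.359 CPM in mESC and 1371 to 1968 CPM in adult cortex.

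All 29 postsynaptic genes fell as well (median -8.36), among them Camk2a, the kinase of synaptic plasticity, at 14.77 and 7.322 CPM in mESC and 2979 to 4965 CPM in adult cortex. Ion channels and pumps fell in 27 of 27 cases (median -7.56). Neuron identity genes fell in 25 of 25 cases (median -8.64). Over both mESC libraries, 8 postsynaptic, 5 ion channel and 7 neuron identity genes had at most 3 counts. Genes at 0 counts there could not have been called higher in mESC. Mef2c, a transcription factor of cortical neurons, had 0.265 and 0.285 CPM in mESC and 555.6 to 912 CPM in adult cortex, and Gad1, the enzyme that makes GABA, had 1.017 and 1.342 CPM in mESC and 293.5 to 408.9 CPM in adult cortex.

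The neuronal cytoskeleton was the exception among neuronal lists, with 19 lower, 2 higher and 6 not called of 27. Kif5a, a kinesin of axonal transport, fell to 17.77 and 20.46 CPM in mESC, against 2813 to 4987 CPM in adult cortex, and Map2, of dendrites, to 2.564 and 6.468 CPM, against 872.8 to 1190 CPM. The beta tubulins Tubb5 (2524 and 2071 CPM in mESC, 386.4 to 526.6 CPM in adult cortex) and Tubb2b (258 and 366.9 CPM in mESC, 92.13 to 128.5 CPM in adult cortex) rose. Stmn2 and Tubb3, often used as neuron markers and picked after their values were seen, were abundant in mESC. Stmn2 averaged 418 CPM in mESC and 338 CPM in adult cortex and was not called, and Tubb3 had 299.6 and 181.5 CPM in mESC, against 268.3 to 374.6 CPM (adjusted p = 0.156, edgeR quasi-likelihood test); without mESC replicate 1 it was called lower (-0.84).

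Most genes of the other cells of the cortex fell in mESC. Genes at 0 counts there, such as Aqp4 and P2ry12, could not have been called higher in mESC. All 18 astrocyte genes fell (median -5.92), though Glul, glutamine synthetase, remained at 349.3 and 524.5 CPM in mESC, against 1462 to 1803 CPM in adult cortex. All 21 oligodendrocyte genes fell (median -7.83): Mbp, the myelin basic protein, had 0.752 and 0.488 CPM in mESC and 1919 to 5513 CPM in adult cortex. The adult values of Mbp were highest in replicate 1 at both stages (3549 CPM at A6w and 5513 CPM at A18w), beside 1919 and 2674 CPM in the libraries numbered 2. Of 18 microglia genes 17 fell (median -9.22, or -7.13 with the 11 genes at their lower bounds), such as Csf1r, the receptor on which microglia depend, with 1 count in mESC and 74.89 to 97.8 CPM in adult cortex. Laptm5, a lysosomal protein of blood cells, rose to 59.82 and 47.31 CPM in mESC, against 30.04 to 35.64 CPM, and was not called without mESC replicate 1 (log2 difference 0.48). Of 20 endothelial and pericyte genes 19 fell, and the exception Pecam1, an adhesion molecule that naive stem cells share with vessels, had 58.23 and 43.69 CPM in mESC and 20.8 to 25.82 CPM in adult cortex.

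Fibroblast genes fell in 13 of 18 cases and rose in 3 (1 without mESC replicate 1), and Vim (vimentin) rose to 232.5 and 232.2 CPM in mESC, against 33.73 to 42.59 CPM in adult cortex. Choroid plexus genes fell in 8 of 10 cases, and in 6 to 8 with single adult libraries left out. In the main fit the 2 other choroid plexus genes rose by at least 4-fold in mESC. Ttr, the transthyretin of choroid plexus, had 0 counts in mESC, against 2.827 and 1.74 CPM at A6w and 0.775 and 624.8 CPM at A18w. Against A6w cortex alone 4 of the 10 were called lower, and without mESC replicate 1 or 2 the counts were 4 and 3. Hippocampal and striatal genes fell in 15 of 15 cases, with Ppp1r1b, of striatal neurons, at 2.609 and 0.976 CPM in mESC and 97.84 to 906.1 CPM in adult cortex, highest in A18w replicate 1.

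Immediate early genes, which neurons switch on with activity, fell in 16 of 19 cases (median -4.05). Arc had 14.02 and 18.3 CPM in mESC, against 153.4 and 191 CPM at A6w and 505.7 and 322.1 CPM at A18w. Egr1, an early growth response factor, had 12.11 and 37.26 CPM in mESC and 203.9 to 640.9 CPM in adult cortex, so the adult libraries varied widely in both genes, though all lay above the mESC libraries. Ier2 went the other way, at 267.5 and 245.4 CPM in mESC and 8.914 to 16.42 CPM in adult cortex, a log2 difference of 4.52 ± 0.22, as did Btg2, an antiproliferative target of p53 (2.04 ± 0.32).

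Imprinted genes, expressed from 1 parental copy, fell in 16 of 30 cases and rose in 7. Over all genes tested 39.5% were lower and 36.7% higher. The non-coding RNAs of the Dlk1-Dio3 domain, whose loss in some stem cell lines limits their potential, were nearly silent: Meg3 had 0.133 and 0.895 CPM in mESC, against 337.7 to 881.7 CPM in adult cortex. Rian had 0.309 and 2.481 CPM in mESC and 387.9 to 464.9 CPM in adult cortex, and Mirg had 0 counts in mESC and 4.54 to 7.069 CPM in adult cortex, at least 86.85-fold lower in mESC. Phlda2, a growth restrictor of the placenta, had 35.37 and 62.77 CPM in mESC and 0 counts in adult cortex. Grb10, which dampens insulin signalling, rose to 260.9 and 281.6 CPM in mESC, against 30.22 to 42.33 CPM. Allele-specific expression was not measured.

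Of 18 germline genes 16 passed the count filter, and all 16 rose (median 7.48, or 6.26 with genes at their lower bounds). Some of them had 0 counts in adult cortex and could not have been called lower. Tex19.1, which protects the germline from transposons, had 42.09 and 43.12 CPM in mESC and 0 counts in adult cortex. Stra8, a gene of meiotic entry, had 79.23 and 14.32 CPM in mESC and 0 counts in adult cortex, so its mESC level depended on the library. Antigen presentation and interferon genes had 8 lower, 6 higher and 6 not called of 20, near the shares of all genes tested (39.5% lower and 36.7% higher). B2m, the light chain of MHC class I, had 10.21 and 13.26 CPM in mESC, against 67.3 to 80.64 CPM in adult cortex. Y-linked Ddx3y was present in both groups, at 5.394 and 7.119 CPM in mESC and 50.95 to 71.16 CPM in adult cortex, and Xist stayed at or below 1.18 CPM in all 6 libraries.

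MicroRNAs repress messages through bases 2 to 8 of their mature strand, the seed. Mature forms were not measured here, only the longer RNAs that host them, and these hosts were chosen after their values were seen. Mir17hg, host of the miR-17-92 cluster that promotes proliferation, had 10.61 and 56.14 CPM in mESC, against 0.12 to 0.228 CPM in adult cortex, a log2 difference of 7.48 ± 0.67. Mir124-2hg, host of the neuronal miR-124, had 0.0884 and 0.163 CPM in mESC and 28 to 30.27 CPM in adult cortex (-7.79 ± 0.31). Another miR-124 host, Mir124a-1hg, was far from silent, at 8.887 and 23.67 CPM in mESC and 39.74 to 71.44 CPM in adult cortex (-1.6 ± 0.41). Mir9-3hg, host of the brain miR-9, had 1.017 and 1.79 CPM in mESC and 20.24 to 37.76 CPM in adult cortex (-4.32 ± 0.38). Mir99ahg, host of let-7c and miR-125b, was counted once in mESC and had 1.155 to 2.06 CPM in adult cortex. The mature sequences of the higher host and of 2 lower hosts are shown from RefSeq with the seed in capitals.
miR-17-5p: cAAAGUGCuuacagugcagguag
miR-20a-5p: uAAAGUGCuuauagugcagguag
miR-19a-3p: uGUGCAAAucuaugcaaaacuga
miR-19b-3p: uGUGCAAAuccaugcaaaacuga
miR-92a-3p: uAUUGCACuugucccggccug
miR-9-5p: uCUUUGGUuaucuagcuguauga
let-7c-5p: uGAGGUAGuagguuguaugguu
miR-125b-5p: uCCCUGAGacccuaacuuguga
Within the cluster of Mir17hg, miR-17-5p and miR-20a-5p share one seed and miR-19a-3p and miR-19b-3p another. Lin28a, whose protein blocks the maturation of let-7, had 285.4 and 314.8 CPM in mESC and 0 counts in adult cortex, at least 9860-fold higher. Its relative Lin28b rose too (3.43 ± 0.35). Of 13 genes of miRNA processing and LIN28 8 rose, 2 fell and 3 were not called. Over all genes tested 36.7% were higher and 39.5% lower.

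Long genes were mostly lower in mESC. Among protein-coding genes that span 200 kb or more in the annotation, 9.56% were called higher and 79.2% lower, with a median log2 difference of -4.27 over 962 genes. Among those under 10 kb, 42.4% were called higher and 33.8% lower, with a median of 0.29 over 4044 genes. The class from 10 to 50 kb was much like that under 10 kb, with a median of 0.32 and 44.8% higher and 33.8% lower, and medians were lower above it, at -0.37 from 50 to 100 kb and -1.42 from 100 to 200 kb. Adhesion molecules and channels of synapses are known for long introns, and the adhesion molecules Opcml and Negr1 were among the largest falls. Whether the pattern by span rests on such genes was not tested. Calls also depend on counts, which rise with transcript length, whereas these classes use the span with introns.

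**Figure D5:**
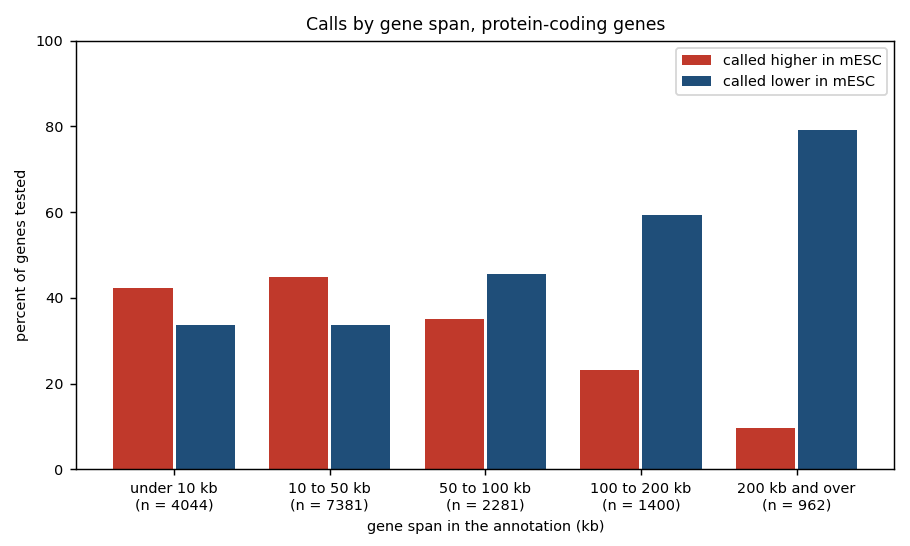
Percent of protein-coding genes tested that were called higher (red) or lower (blue) in mESC than in adult cortex, by gene span, with the number of genes under each class. The share called lower climbs to 79.2% at 200 kb and over, against 33.8% under 10 kb, and the share called higher drops to 9.56%.

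The most abundant transcripts overlapped only in part. In mESC the 10 highest were mt-Co1, Eef1a1, Hsp90aa1, Hsp90ab1, mt-Atp6, mt-Co3, mt-Co2, Ncl, Ptma and Gapdh. In adult cortex 9 of the 10 highest were mitochondrial. The chaperone Hsp90ab1 had 7515 and 4766 CPM in mESC, against 1237 to 1540 CPM in adult cortex, and Ptma, a histone-binding protein of dividing cells, 4199 and 4755 CPM against 269.8 to 345.5 CPM. Genes often used as references moved as well: of 20 housekeeping genes 15 rose, 4 fell and 1 was not called, with a median of 1.22. Gapdh had 5164 and 3579 CPM in mESC, against 1693 to 2103 CPM in adult cortex.

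Among genes at 200 CPM or more in both groups, the 5 smallest differences were those of Rangap1, Hmgcs1, Eif4a2, Actr2 and Hnrnpul2. Hmgcs1, an enzyme of cholesterol synthesis, had 326 and 309 CPM in mESC and 292.4 to 335.9 CPM in adult cortex, a log2 difference of -0.01 ± 0.16. Eif4a2 averaged near its adult level only because its mESC libraries lay on both sides of it, at 402 and 781.2 CPM, against 553.5 to 727.4 CPM in adult cortex.

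The adult stages gave little difference between themselves. A18w against A6w WT cortex gave 0 calls of 19466 genes by edgeR (0%; smallest adjusted p = 0.0692), 886 genes at an unadjusted p under 0.05, and 48 calls by DESeq2. With 2 libraries a stage this does not show that the stages were alike. Against either stage alone Ccnb1, Mcm5 and Rest were called higher and Snap25 and Mbp lower in mESC in both.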

How the data were processed

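Estimated counts per gene were deposited as whole numbers for 54281 gene IDs; the authors made them with Salmon 1.4.0 after Trimmomatic 0.39 and FastQC on GRCm38.p6, per the submitters' processing notes. Reads shared by several genes were divided by that estimate, and whether strand was used is not given in the sources used here, so close copies and antisense genes are uncertain. Per the labels' protocols, libraries were made from 1 µg RNA with an NEBNext Ultra kit and sequenced on an Illumina HiSeq. Symbols came from GENCODE M21 for 54107 IDs (174 unmatched).

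The 10 wild-type libraries (5 groups, 2 libraries each) entered 1 fit. Low genes were removed by filterByExpr at a minimum count of 10 and a minimum total of 15. TMM scaling, 1 mean per group and quasi-likelihood F tests followed (edgeR 4.0.16 under R 4.3.3), with Benjamini-Hochberg adjustment over 19466 genes. The design had assumed raw counts; no rounding was needed. Standard errors are the absolute log2 difference over the root of F. DESeq2 1.42.0 was an alternative. On simulated data of 18893 genes for mESC against adult cortex, edgeR recovered 79% of 4-fold and 23% of 2-fold changes, and DESeq2 85% and 40%. Only 100 genes were changed at each fold, and all others were equal between mESC and adult cortex. In the real data 76.2% of genes were called, so these shares do not give the recovery there.

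Libraries of a group were not copies (chi-square per degree of freedom 125 for mESC, 40.61 for A6w and 44.81 for A18w). Members, gene lists, paralog pairs and motifs were chosen with earlier results of these data known. Named genes were the 10 largest rises and falls among called genes whose groups did not overlap and with at least 50 CPM in the higher group, the 10 highest in each group, up to 6 called members of each of 47 lists by CPM with up to 4 going the other way, the paralog pairs described, Mcph1, and the 5 smallest differences at 200 CPM or more in both groups. Promoters (250 bases before to 50 after the start) and miRNAs came from RefSeq tables for GRCm38.p6. Intervals and lower bounds (95%, 3 counts over a group) cover counting error only. A few genes the rule names are not reported here.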

Additional observations from a re-analysis of the deposited data

Results flagged for a closer look

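Values were looked at again where 1 of the 4 adult libraries lay far from the other 3 (gap over range above Dixon's 95% critical value). Of 213 values tested, 15 met this, and chance flags about 1 in 20. The mESC group has 2 libraries and could not be tested in this way.

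In A18w replicate 2, Ttr stood at 624.8 CPM (0.775 to 2.83 in the other adult libraries), summed choroid plexus genes at 1205 CPM (209.9 to 251.9) and Otx2, which choroid plexus expresses, at 3.41 CPM (0.0912 to 0.319). The core pluripotency list summed to 81.99 CPM there (63.67 to 66.58) and Eif4a2 stood at 727.4 CPM (553.5 to 573.9). In A18w replicate 1, summed hippocampal and striatal genes stood at 2762 CPM (488.7 to 818.7), with Ppp1r1b at 906.1 CPM (97.84 to 189.2) and the histamine receptor Hrh3 at 186.1 CPM (83.42 to 96.67). In A6w replicate 1, immediate early genes summed to 1314 CPM (2807 to 3099), glycolysis genes to 10410 CPM (11870 to 12060) and ribosome biogenesis genes to 1079 CPM (1177 to 1187), with Pkm at 1008 CPM (1215 to 1233) and Mcm2 at 3.43 CPM (4.44 to 4.58). In A6w replicate 2, Slc2a3 stood at 224.4 CPM (147.9 to 156.9) and Smarcc1 at 83.95 CPM (64.51 to 67.41). The part of dissection or of other tissue in these values was not tested.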

How the results depend on the processing

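For mESC against adult cortex, against A6w and against A18w alone, counts of calls stayed within 1.5 times under every alternative run. Leaving out 1 library at a time gave 6702 to 7178 genes higher and 7125 to 7630 lower against adult cortex. Such counts do not show that the same genes were called. DESeq2 kept 14510 of the 14824 calls. Without mESC replicate 1, 9 of the 14795 main calls still in the fit changed direction. Without mESC replicate 2, 14 of 14781 did. Between the adult stages, where edgeR called 0, DESeq2 called 33 genes higher and 15 lower in A18w, a fit with no filter on low counts 181 and 81, and a fit of all 18 libraries 1 and 1. Leaving out 1 library gave 0 to 11 higher and 0 to 2 lower there. Deviations of libraries of the same number correlated at -0.103 (mESC and A6w), 0.0391 (mESC and A18w) and 0.143 (A6w and A18w). With 2 libraries a group these values cannot show whether the replicate numbers pair the samples. Adding a replicate block gave 7084 genes higher and 7628 lower. Of the named genes' values, 3074 kept their side of the threshold, 42 lost the call, 15 gained one and 10 moved uncalled. Losses concern chiefly Il6st, Gnl3l, Ttr and Smarca4. Mitochondrially encoded genes called lower numbered 14 without mESC replicate 2 and 13 with no filter, against 7. With 2 libraries a group, small changes may be missed. The simulation cannot say how many, because few of its genes were changed. The causes of the shifts between settings were not tested.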
